A study of Mus musculus with 12 samples.

Results

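Mesenchymal stromal cells of the bone marrow are recognised by a panel of proteins on the cell surface, and 10 mouse genes of such proteins were followed here: Pdgfra, Pdgfrb, Itgb1, Cd44, Vcam1, Mcam, Eng, Nt5e, Thy1 and Ly6a. They were named as a list and found in the deposited table by matching its Ensembl identifiers to mouse gene symbols, which gave all 10 of them among its 54532 genes. The proteins fall into a few roles. The PDGF receptors pass growth signals to stromal cells and pericytes, integrin beta 1, CD44, VCAM1 and MCAM hold cells to matrix or to other cells, endoglin is a co-receptor for ligands of the TGF-beta family, CD73 (from Nt5e) makes adenosine outside the cell, and Thy1 and Ly6a are held in the membrane by a lipid anchor. Several of them, CD44 and integrin beta 1 among them, are also carried by blood cells, so no single one defines a stromal cell.

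The study asked how the chromatin remodeller CHD7 affects the choice of marrow stromal cells between bone and fat. Cells were flushed from the femurs, tibiae and humeri of C57BL/6 mice 4 weeks old and grown on plastic to passage 3, and RNA was taken 5 days after a change to osteogenic or adipogenic medium. Control cells, labelled WT, came from Chd7fl/fl mice, which carry the floxed gene without Cre, and cells labelled Chd7 KO came from Prx1-cre;Chd7fl/fl mice. Each of the 4 groups, control and knockout in either medium, had 3 libraries. Ascorbic acid (50 µM), β-glycerophosphate (10 mM) and 10 nM dexamethasone made the medium osteogenic, and insulin (10 µg/ml), isobutylmethylxanthine (0.5 µM) and 1 µM dexamethasone made it adipogenic. As a model the knockout groups are limited by their Cre, which is expressed from a promoter of early limb mesenchyme and so leaves the gene intact in blood cells, and all groups by the lack of any stated sort of the cells before RNA was taken. Values are FPKM, the number of sequenced fragments per kilobase of a gene's exons, scaled for depth.

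The targeted gene, Chd7, was looked at first. Cre removes a single exon of it, which a value over all exons measures only in small part, so these values are a weak check of the labels. In osteogenic medium it was at 2.64, 2.67 and 2.77 FPKM in control and at 2.03, 2.35 and 2.28 FPKM in knockout libraries. In adipogenic medium the values were 2.26, 1.81 and 2.23 FPKM in control and 2.03, 2.35 and 2.48 FPKM in knockout libraries. The knockout libraries thus lay below the controls in osteogenic medium only, and in adipogenic medium the groups overlapped. Libraries are therefore named by their labels.

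The labelled cell type was set against marker lists. Of 16 genes of the stromal lineage, 14 had a mean of at least 1 FPKM, led by Acta2, the smooth muscle actin of contractile stromal cells, at a mean of 1019 FPKM, while Gli1 and Lum were close to 0. All 18 macrophage genes were also at 1 FPKM or more, and Lyz2, the lysozyme of myeloid cells, had a mean of 8956 FPKM, above any stromal gene listed. Summed over the 18 genes, macrophage FPKM was 17045, 17529 and 17573 in control and 18532, 18186 and 18044 in knockout osteogenic libraries. In adipogenic medium this sum was 21571, 11928 and 21237 in control and 11303, 9746 and 9996 in knockout libraries. The RNA therefore came from cultures with abundant macrophage transcripts as well as stromal ones. The macrophage sum was lowest in the knockout libraries in adipogenic medium, where 3 of the 18 genes rose and 10 fell, while 7 of the 14 stromal lineage genes tested rose and 2 fell, against 16.7% of all genes called higher and 16.5% lower. In osteogenic medium 1 macrophage gene rose and 4 fell, and 6 stromal lineage genes rose and 1 fell, against 4.94% of all genes higher and 4.15% lower. Summed over the stromal lineage genes, FPKM was 1893, 1756 and 1802 in control and 2245, 2037 and 2231 in knockout osteogenic libraries. In adipogenic medium the stromal sum was 2526, 2517 and 2326 in control and 2806, 2957 and 3022 in knockout libraries. The part of macrophage RNA in any result on the surface genes was not tested. Since these are bulk samples, fewer cells of a type and less RNA per cell cannot be told apart.

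Among surface genes that stromal cells should lack, 3 of 11 had a mean of at least 1 FPKM, and Cd14 was the most abundant at a mean of 72.7 FPKM. Summed over the 11, FPKM was 343, 55.3 and 343 in control and 146, 52.3 and 57.5 in knockout adipogenic libraries. In osteogenic libraries it was 46.2 to 59.0. The endothelial list summed to between 8.08 and 18.8 FPKM. Its values were 9.27, 8.45 and 8.33 in control and 18.8, 18.5 and 17.3 in knockout osteogenic libraries, with Cldn5 above 0 in a single library. In adipogenic medium the endothelial sum was 8.26, 8.08 and 8.66 in control and 12.96, 15.2 and 14.4 in knockout libraries, so it was higher in knockout libraries in both media. Of 10 fat cell genes, 4 had a mean of at least 1 FPKM, led by Cebpa at a mean of 84.2 FPKM, while Adipoq and Plin1 reached at most 0.600 and 0.0951 FPKM. Of the 4 tested, Lpl, Cebpa and Fabp4 were called lower in adipogenic than in osteogenic medium in control libraries, and none higher. In knockout libraries Lpl and Fabp4 were higher and none lower. Of all genes, 10.5% were higher and 12.3% lower in control, and 13.9% and 14% in knockout libraries.

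Among the libraries in adipogenic medium, control library 2 stood apart from its group over all genes, and knockout library 1 did so less over all genes and also in single genes. Across genes, which are not independent replicates, control library 2 had a mean Pearson r of 0.9409 with its own group, against 0.9809 with control and 0.9835 with knockout osteogenic libraries. Control libraries 1 and 3 had an r of 0.9892 with each other and a mean r of 0.9287 to 0.9363 with the other groups. These r do not tell which control library is the odd one. Knockout library 1 was most alike its own group, with a mean r of 0.9807, against 0.9549 to 0.9609 with the other groups. Its r was 0.9801 with knockout library 2 and 0.9813 with knockout library 3, which had 0.9916 with each other. Adgre1, which encodes the macrophage marker F4/80, was at 227 FPKM in control library 2 and at 1171 and 1136 FPKM in the other control libraries. Cd14 was at 121 FPKM in knockout library 1 and at 32.4 and 37.8 FPKM in the other knockout libraries. Counts of surface genes and fold changes between genotypes in adipogenic medium are therefore also given without these 2 libraries, an alternative chosen after seeing the data. Over all genes each was the library of its group most alike the other genotype in that medium. Control library 2 had a mean r of 0.9669 with the knockout libraries there, and knockout library 1 of 0.9549 with the controls. Leaving both out thus favours wider genotype differences, and p-values of that fit are descriptions only. Counts over other lists of genes are given with all libraries alone.

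**Figure D1:**
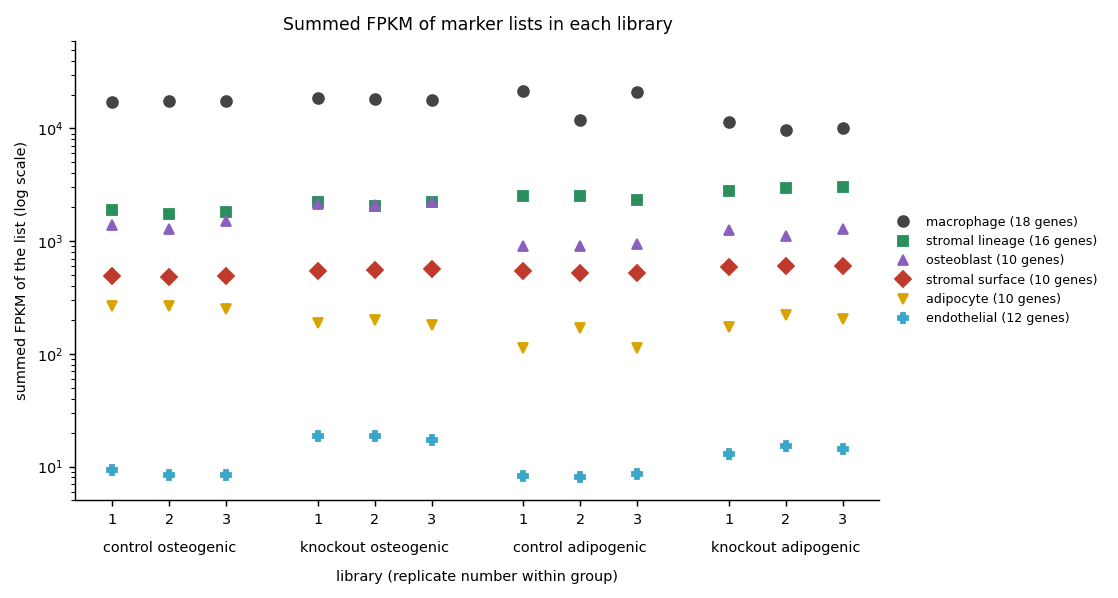
Summed FPKM of marker lists (log axis) in each of the 12 libraries, by group and replicate number. Macrophage genes had the highest sum in every library, and for these genes control library 2 in adipogenic medium lay nearer to the knockout than to the other control libraries of that medium.

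The 10 genes differed widely in level, and Itgb1 made up 63.7% to 69.7% of their summed FPKM. By mean FPKM the order was Itgb1, Pdgfrb, Cd44, Ly6a, Eng, Vcam1, Pdgfra, Mcam, Nt5e and Thy1. Genes with at least 1 FPKM in at least 3 libraries were tested with limma, 12871 in all, and a gene is called where its p, adjusted over all of these, was under 0.05. The fit takes 1 spread per gene from all groups together. An SE or p in osteogenic medium therefore also carries the spread of the adipogenic libraries, except in fits of the compared libraries alone. Of the 10 genes, 8 were at 1 FPKM or more in all 12 libraries. Exons of 4 of the 10 overlap those of other annotated genes, Pdgfra by 456, 166 and 30 bases, Eng and Vcam1 by 61 each and Mcam by 17, and the use of strand was not stated. Nt5e passed the filter only through the 3 knockout libraries in osteogenic medium, and Thy1 did not pass it. Counts are therefore given over the 9 tested and over the 8 that were always at 1 FPKM or more. Fold changes are on the log2(FPKM + 1) scale, which understates changes of low values, and comparisons that share a group of libraries are not independent.

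**Figure D2:**
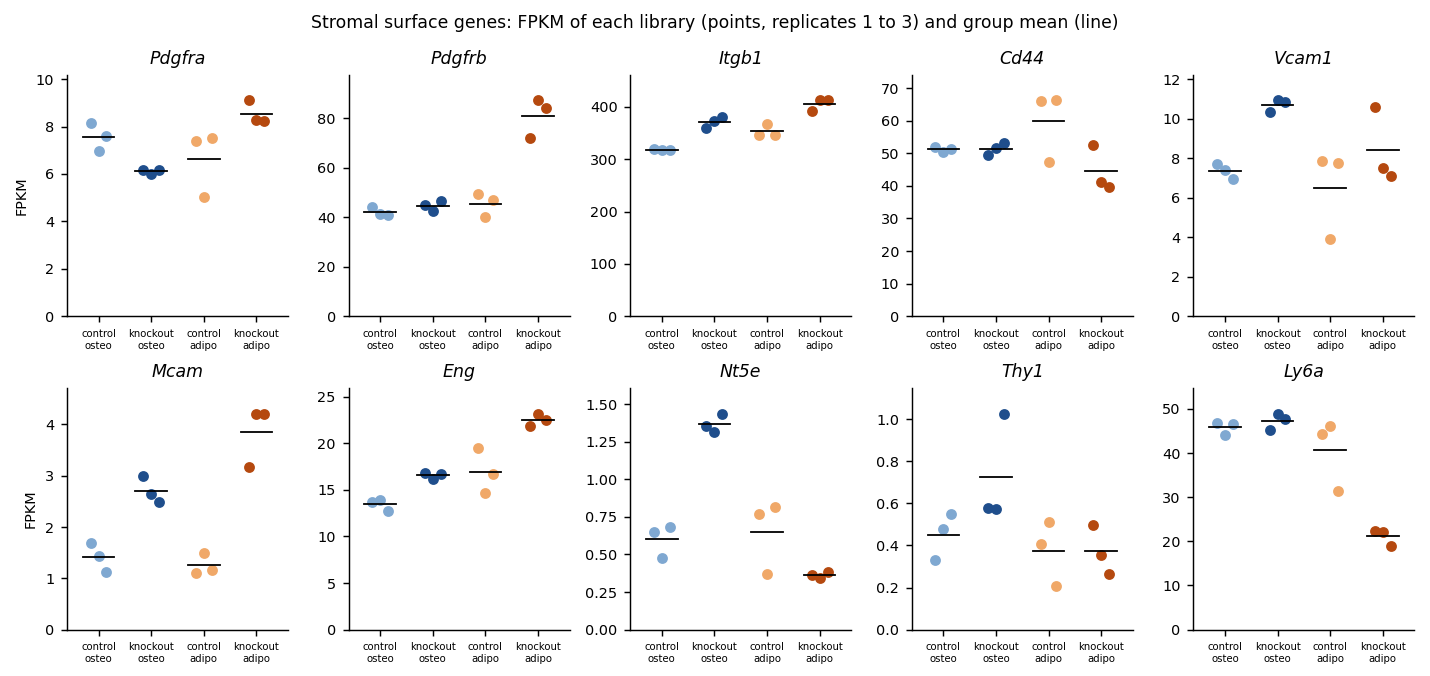
FPKM of the 10 surface genes in each library (points) with the mean of each group (line), on axes that start at 0. Pdgfrb and Ly6a show the knockout libraries in adipogenic medium apart from all others, and Nt5e the knockout libraries in osteogenic medium.

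In osteogenic medium, Itgb1, Mcam and Nt5e were higher in knockout than in control libraries and none of the surface genes was called lower. Those are 3 of 9 tested and 2 of the 8, where 9.09% of all genes were called, 4.94% higher and 4.15% lower. The median log2 fold change was 0.22 over the 9, 0.15 over the 8 and -0.0064 over all genes tested. In all, 1170 genes were called, and leaving out any 1 of the 6 libraries lowered that number to between 522 and 662, while a fit of the 6 libraries alone raised it to 3412, with 5 surface genes higher and 1, Pdgfra, lower. With 1 library left out the surface genes called numbered 1 to 3, with Itgb1 alone called without knockout library 1 and Mcam alone without knockout library 3.

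In adipogenic medium, Itgb1, Pdgfrb, Eng and Mcam were higher and Cd44 and Ly6a lower in knockout than in control libraries. Those are 6 of 9 and 6 of the 8, where 33.2% of all genes were called, 16.7% higher and 16.5% lower. The median log2 fold change was 0.33 over the 9, 0.35 over the 8 and -0.0145 over all genes tested. In all, 4276 genes were called, against 6559 without control library 2, 2723 without knockout library 3 and 6575 without the 2 libraries that stood apart. A fit of the 6 libraries alone lowered the number to 1707. Of 8 surface genes tested in that fit 3 were called, Pdgfrb and Mcam higher and Ly6a lower. Without control library 2 alone, 8 of the 9 were called, 5 higher and 3 lower, and without those 2 libraries 7, 4 higher and 3 lower.

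Between the media, Itgb1 and Eng were higher in adipogenic than in osteogenic medium in control libraries, which is 2 of 9 and 2 of the 8. Among all genes 22.8% were called, 10.5% higher and 12.3% lower. The median was 0.03 over the 9, -0.0014 over the 8 and 0.0056 over all genes. Both calls ended in 9 of 15 alternatives, among them the fits without control library 1 or 3 in adipogenic medium or without any 1 of the control libraries in osteogenic medium. Both ended with TPM as well, where Pdgfra alone was called, lower at -0.30 (limma adjusted p = 0.0364), among 2105 genes. With 1 library left out, 1367 to 6147 of all genes were called rather than 2935, the most without control library 2 in adipogenic medium, where Cd44 joined Itgb1 and Eng. Without both libraries that stood apart, Pdgfrb was called as well, which made 4 of 9, where 6397 of 12670 genes were called.

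In knockout libraries the media differed for 7 of the 9, and for 6 of the 8. Itgb1, Pdgfrb, Pdgfra, Eng and Mcam were higher and Ly6a and Nt5e lower in adipogenic medium. Among all genes 27.9% were called, 13.9% higher and 14% lower. The median was 0.13 over the 9, 0.26 over the 8 and 0.0040 over all genes. Without the 2 libraries that stood apart all 9 tested were called, Cd44 and Vcam1 both lower. In that fit 5378 of 12670 genes were called, rather than 3592 with all libraries. Leaving out 1 library at a time gave 3 to 6, with 2486 to 2798 of all genes called. Pdgfra, Itgb1 or Mcam were the ones lost, or Nt5e, which failed the filter without a knockout library in osteogenic medium.

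The interaction asks whether the genotype difference was itself different in the media. It was called for 4 of the 9 and 3 of the 8: the difference was more positive in adipogenic medium for Pdgfra and Pdgfrb, and more negative for Ly6a and Nt5e. Among all genes 20.4% were called, 10.9% more positive and 9.58% more negative. The median was -0.02 over the 9, 0.05 over the 8 and -0.0028 over all genes. Without control library 2 in adipogenic medium 5427 rather than 2630 genes and 6 of the 9 were called. Without the 2 libraries that stood apart the calls came to 5793 of 12670 genes and 7 of 9. Cd44 and Vcam1 were then more negative and Mcam more positive.

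Rescaling the FPKM of every library to one common total (TPM) moved the median of all genes by 0.16 for the genotypes in adipogenic medium, by -0.11 for the media in control libraries and by 0.17 for the interaction. No called direction of a surface gene turned with it. In adipogenic medium, with TPM, 3264 genes were called higher and 898 lower in knockout libraries, against 2153 and 2123 with FPKM. Cd44 then lost its call, at -0.23 on the log2 scale (limma adjusted p = 0.113), and Pdgfra at 0.50 and Vcam1 at 0.53 gained one (limma adjusted p = 0.00167 and 0.0360).

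**Figure D3:**
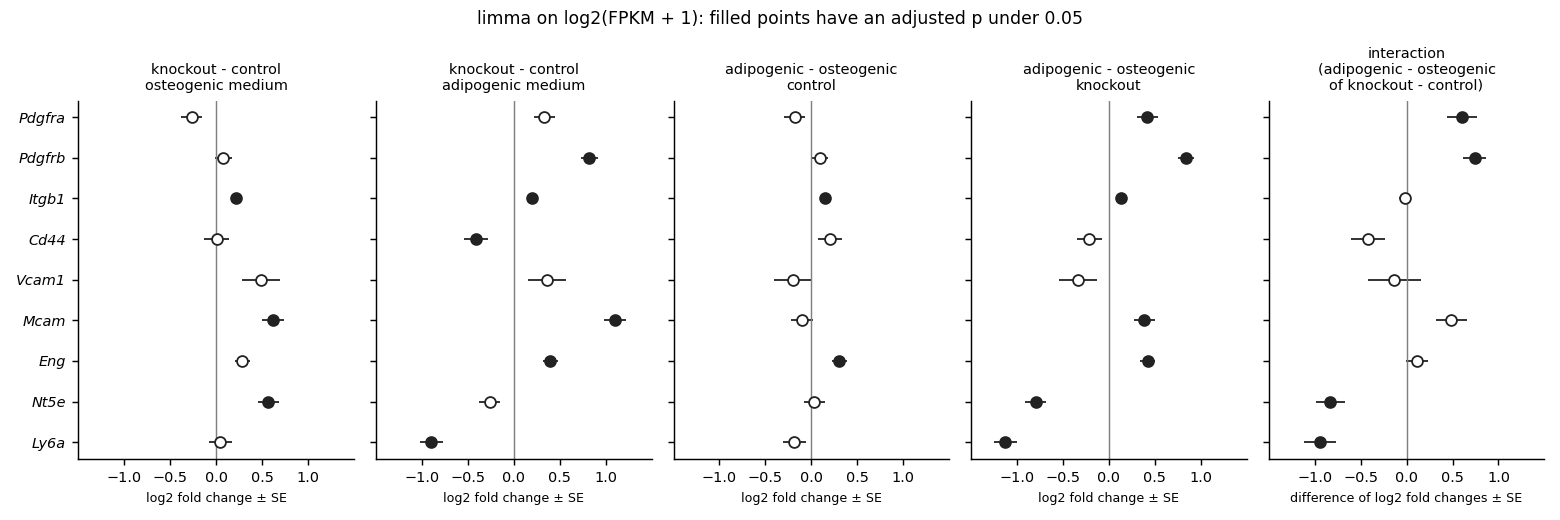
Log2 fold change and standard error of the 9 tested surface genes in the 5 contrasts, from limma on log2(FPKM + 1), with filled points at an adjusted p under 0.05. The receptors Pdgfra and Pdgfrb lie to the right of 0 and Nt5e and Ly6a to the left in the interaction.

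Pdgfra and Pdgfrb encode the alpha and beta receptors for platelet-derived growth factors, tyrosine kinases of fibroblastic stroma and of pericytes. Pdgfrb was at 44.3, 41.4 and 40.9 FPKM in control and 44.9, 42.5 and 46.5 FPKM in knockout osteogenic libraries. In adipogenic medium Pdgfrb was at 49.4, 39.9 and 46.8 FPKM in control and 71.9, 87.1 and 84.0 FPKM in knockout libraries. The 3 knockout libraries in adipogenic medium thus lay above all 9 others, and the other groups overlapped. Pdgfrb rose in knockout libraries in adipogenic medium by 0.82 on the log2 scale (SE 0.0892, limma adjusted p = 0.000126), a fold of 1.77. Its difference in osteogenic medium was 0.08 (limma adjusted p = 0.665), and the interaction was 0.74 (SE 0.126, limma adjusted p = 0.00299). The call in adipogenic medium and that of the interaction were kept under all alternatives run, and without the 2 libraries that stood apart the values were 0.82 and 0.74.

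Pdgfra was less abundant than Pdgfrb in all 12 libraries, with a ratio of Pdgfrb to Pdgfra of 5.38 to 10.54. In osteogenic medium it was at 8.15, 6.98 and 7.60 FPKM in control and 6.18, 6.01 and 6.18 FPKM in knockout libraries. The adipogenic libraries held it at 7.40, 5.02 and 7.52 FPKM in control and 9.10, 8.27 and 8.23 FPKM in knockout libraries. Knockout libraries thus lay below the controls in osteogenic and above them in adipogenic medium, without overlap, and the lowest control value was that of library 2. Neither difference was called, at -0.27 in osteogenic and 0.33 in adipogenic medium (SE 0.117, limma adjusted p = 0.206 and 0.0508). Their difference was called, with an interaction of 0.60 (SE 0.166, limma adjusted p = 0.0296). Without the 2 libraries that stood apart the interaction was 0.39 (limma adjusted p = 0.00260) and the difference in adipogenic medium 0.13 (limma adjusted p = 0.0994). That difference was called without any 1 control library in adipogenic medium (limma adjusted p = 0.0344 to 0.0426), at 0.17 without library 2, and with voom at 0.39 (limma adjusted p = 0.0407). The one in osteogenic medium was called in a fit of its 6 libraries alone (limma adjusted p = 0.0130). The call of the interaction ended with no filter on low values and without control library 1 or 3 or any knockout library in osteogenic medium, or any knockout library in adipogenic medium, where the limma adjusted p lay between 0.0552 and 0.0720.

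The 4 PDGF ligands were all called between the genotypes in adipogenic medium, 3 higher and 1 lower, and none in osteogenic medium, where 33.2% and 9.09% of all genes were called. Pdgfa, the main ligand of the alpha receptor, was at 7.57, 13.1 and 8.13 FPKM in control and 18.8, 18.1 and 17.5 FPKM in knockout libraries in adipogenic medium, which is 0.89 on the log2 scale (limma adjusted p = 0.00174). Pdgfb, a ligand of the beta receptor, was at 8.79, 9.46 and 9.32 FPKM in control and 5.61, 3.66 and 3.17 FPKM in knockout libraries there, which is -1.01 on the log2 scale (limma adjusted p = 0.000564). The knockout libraries lay above all controls for Pdgfa and below them for Pdgfb, and the values were 1.09 and -1.19 without the 2 libraries that stood apart. Pdgfc rose by 0.76 and Pdgfd, another ligand of the beta receptor, by 0.40, both calls ending in 6 of 15 alternatives, and the values were 1.23 and 0.63 without the 2 libraries that stood apart.

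Itgb1 encodes integrin beta 1, the chain shared by most receptors for collagen, laminin and fibronectin. It was at 319, 317 and 318 FPKM in control and 360, 372 and 381 FPKM in knockout osteogenic libraries. With adipogenic medium it was at 345, 367 and 347 FPKM in control and 392, 412 and 412 FPKM in knockout libraries. Knockout libraries lay above the controls of the same medium without overlap, and the control libraries in osteogenic medium were the lowest of all. The differences were 0.22 in osteogenic and 0.20 in adipogenic medium (SE 0.0423, limma adjusted p = 0.0107 and 0.00594), the latter 0.39 with TPM (limma adjusted p = 0.0133). Their difference was -0.02 (limma adjusted p = 0.827), and the value in adipogenic medium was 0.25 without the 2 libraries that stood apart. The call in osteogenic medium ended with no filter on low values, with TPM and without knockout library 3 (limma adjusted p = 0.0510, 0.304 and 0.0587), and the call in adipogenic medium ended in a fit of its 6 libraries alone (limma adjusted p = 0.0812). Between the media Itgb1 was higher in adipogenic medium by 0.15 in control and 0.13 in knockout libraries (limma adjusted p = 0.0324 and 0.0473), and in each case the call ended in 9 of 15 alternatives. With TPM these values were 0.02 and 0.19 (limma adjusted p = 0.920 and 0.194).

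Itgb1 and Eng were the genes called between the media in control libraries, both higher in adipogenic medium, so the 250 bases before the start of each are shown, for Eng where it is described. Of the 10 genes, 6 had an entry in the RefSeq promoter table of build GRCm38.p6, and Pdgfrb, Thy1, Ly6a and Vcam1 had none. Both strands were searched for 5 motifs, and of all 32851 promoters of that length TATAAA stood in 12.4%, CCAAT in 33.8%, GGGCGG (the GC box) in 32.7%, TGACGTCA (the cyclic AMP response element) in 1.5% and TGANTCA (the AP-1 element) in 6.7%. The Itgb1 stretch lies on the plus strand at chr8:128685404-128685653, is 68.0% G and C against a median of 52.4%, and holds 1 GC box, in capitals, whose first base lies 151 bases before the start.
Itgb1: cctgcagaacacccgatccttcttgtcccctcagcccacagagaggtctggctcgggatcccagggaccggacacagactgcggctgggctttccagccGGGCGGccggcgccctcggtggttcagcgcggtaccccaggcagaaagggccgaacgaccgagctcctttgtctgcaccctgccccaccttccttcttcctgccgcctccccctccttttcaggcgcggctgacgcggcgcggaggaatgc

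Of the 12 alpha chains that pair with integrin beta 1, 9 were tested. In adipogenic medium Itga5, Itgav, Itga3 and Itga10 rose and Itga4 fell in knockout libraries, and in osteogenic medium Itga7, the laminin receptor chain of muscle, rose alone, where 33.2% and 9.09% of all genes were called. The call of Itga7 ended in 4 of 14 alternatives, that of Itga4 with TPM (limma adjusted p = 0.0756) and that of Itga3 in a fit of the 6 libraries alone (limma adjusted p = 0.0882). Itga3 rose by 1.03 and by 1.496 without the 2 libraries that stood apart. Itga10 passed the filter through the knockout adipogenic libraries and 1 other, so that its rise was favoured by the filter. Itga5, the fibronectin receptor chain and the most abundant, was at 135, 84.6 and 130 FPKM in control and 173, 162 and 159 FPKM in knockout libraries in adipogenic medium. In osteogenic medium Itga5 was at 111, 109 and 106 FPKM in control and 90.3, 84.5 and 92.8 FPKM in knockout libraries. Knockout libraries thus lay above the controls in adipogenic and below them in osteogenic medium without overlap, the latter not called, and the interaction was 0.81 (limma adjusted p = 0.0196). The rise of Itga5 in adipogenic medium was 0.53 (limma adjusted p = 0.0185) and 0.28 without the 2 libraries that stood apart, and its call ended in a fit of the 6 libraries alone and without knockout library 1 (limma adjusted p up to 0.111).

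Cd44 encodes the main receptor for hyaluronan, a matrix sugar, on stromal and blood cells alike. It was at 52.0, 50.4 and 51.2 FPKM in control and 49.5, 51.7 and 53.0 FPKM in knockout osteogenic libraries. Its adipogenic values were 66.1, 47.3 and 66.2 FPKM in control and 52.7, 41.3 and 39.6 FPKM in knockout libraries. The groups overlapped in both media, and the overlap in adipogenic medium came from control library 2 and knockout library 1. Cd44 fell there by 0.41 (SE 0.132, limma adjusted p = 0.0362), and the call ended in 7 of 15 alternatives: no filter on low values, TPM, the 6 libraries alone, and the fits without control library 1 or 3 or knockout library 2 or 3. Without the 2 libraries that stood apart, which made that overlap, Cd44 fell by 0.70 (limma adjusted p = 7.75e-07). The interaction, -0.42 with all libraries (limma adjusted p = 0.142), was then -0.70 (limma adjusted p = 5.71e-06). The summed macrophage FPKM was highest in the same control libraries 1 and 3, and its part in the Cd44 result was not tested.

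Of 8 genes that make, bind or degrade hyaluronan, 5 were tested. In adipogenic medium Hmmr, a hyaluronan-binding protein of dividing cells, Cemip and the synthase Has2 fell and the hyaluronidase Hyal1 rose, and in osteogenic medium Has2 alone was called, where 33.2% and 9.09% of all genes were called. Has2 was at 4.54, 4.48 and 5.03 FPKM in control and 8.16, 7.78 and 8.72 FPKM in knockout osteogenic libraries. Its adipogenic values were 4.97, 3.04 and 4.37 FPKM in control and 2.40, 3.07 and 3.20 FPKM in knockout libraries. It was thus higher in all knockout libraries in osteogenic medium, by 0.70 (limma adjusted p = 0.00995), and overlapped with the controls in adipogenic medium, where the fall of 0.39 (limma adjusted p = 0.0470) ended in 10 of 15 alternatives and was 0.45 without the 2 libraries that stood apart. The call of Cemip in adipogenic medium ended with TPM and in a fit of the 6 libraries alone (limma adjusted p up to 0.27). The interaction of Has2 was -1.08 (limma adjusted p = 0.00329).

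Vcam1 and Mcam encode adhesion proteins of the immunoglobulin family, VCAM1 a ligand of integrin alpha 4 beta 1 on blood cells, and MCAM a marker of pericytes and endothelium. Vcam1 was at 7.70, 7.38 and 6.94 FPKM in control and 10.3, 10.9 and 10.8 FPKM in knockout osteogenic libraries. The adipogenic libraries held it at 7.83, 3.93 and 7.75 FPKM in control and 10.6, 7.51 and 7.11 FPKM in knockout libraries. Control library 2 was the lowest and knockout library 1 the highest in adipogenic medium, the 4 other libraries there lay within 7.11 to 7.83 FPKM, and in osteogenic medium the groups did not overlap. No contrast of Vcam1 was called, with 0.49 in osteogenic and 0.36 in adipogenic medium (SE 0.207, limma adjusted p = 0.187 and 0.209). That SE is shared by all groups, whose SD was 0.379 in control and 0.312 FPKM in knockout osteogenic libraries. In adipogenic libraries the SD was 2.23 in control and 1.91 FPKM in knockout. In a fit of the 6 libraries in osteogenic medium alone, the same 0.49 had a limma adjusted p of 0.000563. The value in adipogenic medium was 0.08 without control library 2 alone and 0.20 without knockout library 1 alone. Without the 2 libraries that stood apart it was -0.08 (limma adjusted p = 0.224), the opposite direction, and the interaction -0.57 (limma adjusted p = 0.000132).

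Mcam was at 1.70, 1.44 and 1.13 FPKM in control and 2.99, 2.64 and 2.49 FPKM in knockout osteogenic libraries. With adipogenic medium it was at 1.11, 1.498 and 1.16 FPKM in control and 3.18, 4.20 and 4.21 FPKM in knockout libraries, values that rest on 61 to 268 fragments per library over both media. All 6 knockout libraries lay above all 6 controls. Mcam rose in knockout libraries by 0.62 in osteogenic and 1.10 in adipogenic medium (SE 0.118, limma adjusted p = 0.0101 and 0.000118), folds of 1.54 and 2.15, the latter the largest rise among the 9, and by 1.29 in adipogenic medium without the 2 libraries that stood apart. The interaction was 0.49 (limma adjusted p = 0.0648), and 0.67 without the 2 libraries that stood apart (limma adjusted p = 0.00431). It was called too without control library 3 in osteogenic medium, without either of the 2 alone, and blocked by replicate number (limma adjusted p = 0.0365). The call in osteogenic medium ended without knockout library 1 (limma adjusted p = 0.0512), while that in adipogenic medium was kept under all alternatives. Between the media Mcam was higher by 0.39 in adipogenic medium in knockout libraries (limma adjusted p = 0.0338), a call that ended in 8 of 15 alternatives. With voom the rise in osteogenic medium was 0.94. Of 6 tested genes of endothelial cells, which also carry MCAM, 4 were called higher in knockout libraries in each medium, Cdh5, Emcn and Plvap in both, against 4.94% of all genes in osteogenic and 16.7% in adipogenic medium. Emcn was at 1 FPKM or more in knockout libraries alone, so that a rise was favoured by the filter. Their levels were low, with Cdh5 at 0.722, 0.708 and 0.552 FPKM in control and 3.15, 2.55 and 2.77 FPKM in knockout osteogenic libraries, and the groups did not overlap. Of 5 tested genes of smooth muscle and pericytes, 2 were called higher in osteogenic and 4 in adipogenic medium, and their sum, mostly Acta2, was 741, 782 and 748 FPKM in control and 1023, 978 and 1026 FPKM in knockout osteogenic libraries. In adipogenic medium this sum was 878, 1201 and 857 FPKM in control and 1360, 1494 and 1556 FPKM in knockout libraries. It was higher in knockout libraries in both media, and the part of either list in the Mcam result was not tested.

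The window before the start of Mcam in the RefSeq table held 5 GC boxes and the only cyclic AMP response element found among the 6 genes. Because the window also holds annotated exons, only 30 bases of it are shown, from the plus strand at chr9:44134620-44134649. Capitals mark a GC box read on the minus strand, CCGCCC, and the element TGACGTCA, whose first base lies 29 bases before the start given in the RefSeq table, a start that lies within Mcam as GENCODE annotates it. These are matches of letters and say nothing of binding.
Mcam: CCGCCCcccTGACGTCAgcccccgacagcg

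Eng encodes endoglin, which takes up ligands of the TGF-beta and BMP families together with signalling receptors. It was at 13.7, 13.9 and 12.7 FPKM in control and 16.9, 16.2 and 16.7 FPKM in knockout osteogenic libraries. Its adipogenic values were 19.5, 14.7 and 16.7 FPKM in control and 21.9, 23.2 and 22.5 FPKM in knockout libraries. Knockout libraries lay above the controls in each medium without overlap. Eng rose in adipogenic medium by 0.40 (SE 0.0823, limma adjusted p = 0.00502), a call that ended in a fit of the 6 libraries alone (limma adjusted p = 0.0580), and by 0.33 without the 2 libraries that stood apart. The difference in osteogenic medium was 0.28 (limma adjusted p = 0.0601), called in a fit of those 6 libraries alone (limma adjusted p = 0.00325). The interaction was 0.12 (limma adjusted p = 0.513), 0.30 with TPM and 0.02 without control library 2. Between the media Eng was higher in adipogenic medium by 0.31 in control and 0.42 in knockout libraries (limma adjusted p = 0.0265 and 0.00409), the first ending in 9 of 15 alternatives, at 0.18 with TPM, and the second kept under all. The 250 bases before the start of Eng, on the plus strand at chr2:32646345-32646594, are 62.4% G and C and hold none of the motifs searched, so they carry no capitals and stand beside Itgb1 as a stretch without a GC box.
Eng: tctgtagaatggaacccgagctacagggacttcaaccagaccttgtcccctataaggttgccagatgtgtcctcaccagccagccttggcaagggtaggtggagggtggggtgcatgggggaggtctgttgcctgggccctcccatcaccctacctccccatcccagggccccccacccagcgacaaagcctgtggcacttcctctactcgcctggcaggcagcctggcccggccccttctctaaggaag

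Of 10 genes of endoglin's ligands and partner receptors, 8 were tested, and the ligand genes Gdf2 and Bmp10 did not exceed 0.0204 FPKM. In adipogenic medium Tgfb2 and Tgfb3 rose and Tgfb1 fell in knockout libraries, and none of the 8 was called in osteogenic medium, where 33.2% and 9.09% of all genes were called. Tgfb1 was at 82.3, 58.8 and 79.0 FPKM in control and 54.0, 41.0 and 41.9 FPKM in knockout libraries in adipogenic medium, and Tgfb2 was at 12.1, 14.1 and 12.7 FPKM in control and 19.8, 23.4 and 22.6 FPKM in knockout libraries. The groups did not overlap for either gene. The log2 fold changes were -0.67 for Tgfb1 and 0.72 for Tgfb2 (limma adjusted p = 0.00347 and 0.000195), and that of Tgfb1 was not called in a fit of the 6 libraries alone (limma adjusted p = 0.0515). They were -0.94 and 0.84 without the 2 libraries that stood apart. Tgfb3 rose by 0.72, a call that ended in 5 of 15 alternatives, and by 1.13 without those 2 libraries. Tgfb1 was highest in the same control libraries, 1 and 3, as the summed macrophage FPKM.

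Nt5e encodes CD73, the enzyme that turns extracellular AMP into adenosine. It was at 0.647, 0.477 and 0.684 FPKM in control and 1.35, 1.32 and 1.44 FPKM in knockout osteogenic libraries. The adipogenic libraries held it at 0.771, 0.367 and 0.818 FPKM in control and 0.365, 0.345 and 0.385 FPKM in knockout libraries, and over all libraries the values rest on 56 to 225 fragments. The 3 knockout libraries in osteogenic medium were the highest, and in adipogenic medium control library 2 lay among the knockout libraries. Since Nt5e entered the test through those 3 libraries, every difference that rests on them was favoured by the filter: that between genotypes in osteogenic medium, that between media in knockout libraries and the interaction. The values were 0.57 in osteogenic medium (SE 0.114, limma adjusted p = 0.0137), with the call ending without control library 2 (limma adjusted p = 0.0618), and -0.26 in adipogenic medium (limma adjusted p = 0.102). Without control library 2 the latter was -0.39 (limma adjusted p = 0.00483). Between the media it fell by 0.79 in knockout libraries (limma adjusted p = 0.000763), and the interaction was -0.83 (SE 0.162, limma adjusted p = 0.00620). With a pseudocount of 0.1 rather than 1 the values were 1.08 in osteogenic and -0.63 in adipogenic medium, -1.66 between the media and -1.71 for the interaction. Nt5e has no value in the fits that leave out a knockout library in osteogenic medium, since it then failed the filter.

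Of 11 other genes of adenosine handling, 7 were tested, and 2 of them were called between genotypes in adipogenic and none in osteogenic medium, where 33.2% and 9.09% of all genes were called. Entpd1, which encodes CD39 and makes the AMP that CD73 uses, is abundant on macrophages, and the ratio of Entpd1 to Nt5e ran from 5.36 to 75.6 over the libraries. Entpd1 was at 33.9, 36.1 and 33.9 FPKM in control and 23.6, 24.4 and 22.5 FPKM in knockout osteogenic libraries. With adipogenic medium it was at 5.13, 24.2 and 4.38 FPKM in control and 12.5, 19.7 and 19.8 FPKM in knockout libraries. Control libraries 1 and 3 in adipogenic medium were the lowest, and the genotype contrasts were not called (limma adjusted p = 0.556 and 0.149). Ada, the deaminase that removes adenosine, rose in knockout libraries in adipogenic medium by 0.58 (limma adjusted p = 0.000440), and by 0.61 without the 2 libraries that stood apart. The transporter gene Slc29a1 rose by 0.24 there (limma adjusted p = 0.0377), a call that ended in 6 of 15 alternatives, and by 0.11 without the 2 libraries that stood apart (limma adjusted p = 0.0847).

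Thy1 and Ly6a encode small surface proteins held by a lipid anchor, Thy1 (CD90) of fibroblasts, neurons and T cells and Ly6a (Sca-1) of mouse stem and progenitor cells, and of many other cells when exposed to interferon. In the study the proteins of Itgb1 and Thy1 were stained to identify the cells by flow cytometry. Its methods also list antibodies to CD31 and CD45, the proteins of Pecam1 and Ptprc. Surface protein and the RNA given here are unlike measures. Thy1 was at 0.331, 0.477 and 0.548 FPKM in control and 0.576, 0.572 and 1.03 FPKM in knockout osteogenic libraries. In adipogenic medium Thy1 was at 0.406, 0.510 and 0.206 FPKM in control and 0.498, 0.354 and 0.264 FPKM in knockout libraries. It was thus the least abundant of the 10 on average, with 10 to 56 fragments per library, and Itgb1 was 371 to 1683 times as high. Only knockout library 3 in osteogenic medium exceeded 1 FPKM, so Thy1 entered limma only in the fit without the filter, where it was not called in any contrast. In osteogenic medium the knockout libraries lay above the controls, with a log2 difference of 0.24 and an exact permutation p of 0.1, two-sided, the smallest that 3 against 3 libraries can give. The difference was 0.12 without knockout library 3. In adipogenic medium the groups overlapped, with an exact permutation p of 1. Between the media the exact permutation p was 0.6 in control and 0.1 in knockout libraries, with log2 differences of -0.08 and -0.32, the latter -0.20 without knockout library 3 in osteogenic medium.

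Ly6a was at 46.7, 44.1 and 46.6 FPKM in control and 45.3, 48.9 and 47.8 FPKM in knockout osteogenic libraries. In adipogenic medium Ly6a was at 44.3, 46.2 and 31.5 FPKM in control and 22.4, 22.2 and 18.9 FPKM in knockout libraries. The 3 knockout libraries in adipogenic medium lay below all 9 others, and control library 3 was the lowest of those 9. Ly6a fell in knockout libraries in adipogenic medium by 0.90 (SE 0.124, limma adjusted p = 0.000548), to a fold of 0.537. The value was -0.84 without the 2 libraries that stood apart, and the call was kept under all alternatives. The difference in osteogenic medium was 0.05 (limma adjusted p = 0.880), and the interaction was -0.94 (SE 0.176, limma adjusted p = 0.00480), with a limma adjusted p of 0.0598 under TPM. Between the media Ly6a fell by 1.13 in knockout libraries (limma adjusted p = 0.000161) and was at -0.19 in control libraries (limma adjusted p = 0.299). The latter was -0.02 without control library 3 in adipogenic medium, -0.29 without library 2 and -0.32 with TPM.

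**Figure D4:**
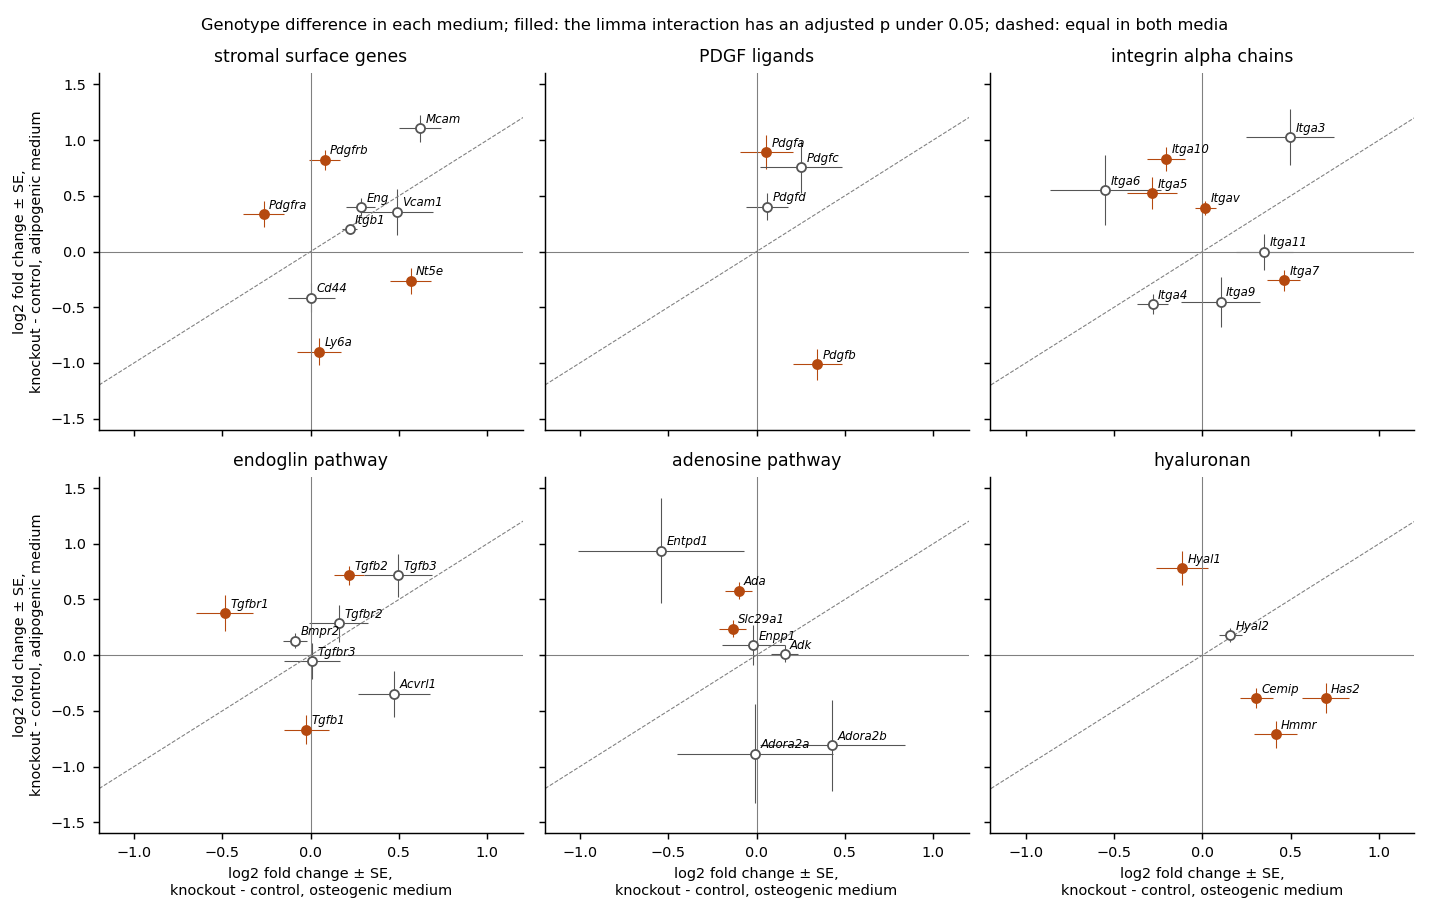
Log2 fold change of knockout against control in osteogenic (horizontal) and adipogenic medium (vertical), with standard errors, for the surface genes and the genes around them; filled points are called in the interaction and the dashed line marks equal values. Mcam, Eng, Itgb1 and Vcam1 lie in the upper right of the first panel, and Ly6a lies far below the line.

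Among 18 other surface genes used for marrow stroma, 16 were tested. In adipogenic medium 5 rose in knockout libraries, Itgav, Cd9, Ncam1, Cspg4 and Ngfr, and 2 fell, Pdpn and Cd200, while in osteogenic medium F3 and Ngfr rose, where 33.2% and 9.09% of all genes were called. The call of Cd9 ended in 6 of 15 alternatives. Pdpn, which encodes podoplanin of fibroblastic stroma and of some macrophages, was at 29.9, 30.9 and 36.0 FPKM in control and 20.8, 19.1 and 21.4 FPKM in knockout osteogenic libraries. In adipogenic medium Pdpn was at 65.7, 33.9 and 71.8 FPKM in control and 13.7, 9.66 and 12.7 FPKM in knockout libraries. The groups did not overlap in either medium, and the log2 fold change in adipogenic medium was -2.10 (limma adjusted p = 0.000162), and -2.53 without the 2 libraries that stood apart. Ngfr, the nerve growth factor receptor CD271, rose by 0.61 in osteogenic and 0.71 in adipogenic medium (limma adjusted p = 0.00489 and 0.000615) at levels of 0.328 to 1.74 FPKM, and it was at 0.78 in adipogenic medium without the 2 libraries that stood apart. It reached 1 FPKM in knockout libraries alone, so that a rise was favoured by the filter. Lepr, the leptin receptor that marks stromal cells around marrow sinusoids, stayed under the filter, at 0.449 to 1.13 FPKM, and Dpp4 was at 0.0289 FPKM or less.

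Among the 9 tested surface genes, Pdgfrb and Eng had the most alike levels over the 12 libraries, with a Pearson r of 0.905 on log2(FPKM + 1), and Pdgfrb and Ly6a the most opposed, with -0.939. Itgb1 had an r of 0.848 with Eng and of 0.843 with Mcam, while Pdgfra and Itgb1 were at 0.0879. These are descriptions over 12 libraries that share their groups. Of all genes tested, those most like Pdgfrb were Vgll3 with 0.984, Rabgap1 with 0.982 and Notch3 with 0.982. For Itgb1 these were Lima1, Cald1 and Tgfb1i1 with 0.986 to 0.987. For Mcam they were Spry1, Sytl1 and Ppm1f with 0.990, 0.978 and 0.976, and for Eng Ece1, Arhgap29 and Lox with 0.971, 0.964 and 0.957. Cd44 was most like Marco with 0.989, then Sash1 and Sema4b with 0.979 and 0.967. Ly6a was most like Fcrls, Lipa and Senp1 with 0.978, 0.963 and 0.959, and Nt5e most like Has2, Ccl6 and Txnrd3 with 0.963, 0.948 and 0.946. Pdgfra was most like Zfyve1, Gm10561 and Trem1 with 0.942, 0.934 and 0.928.

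**Figure D5:**
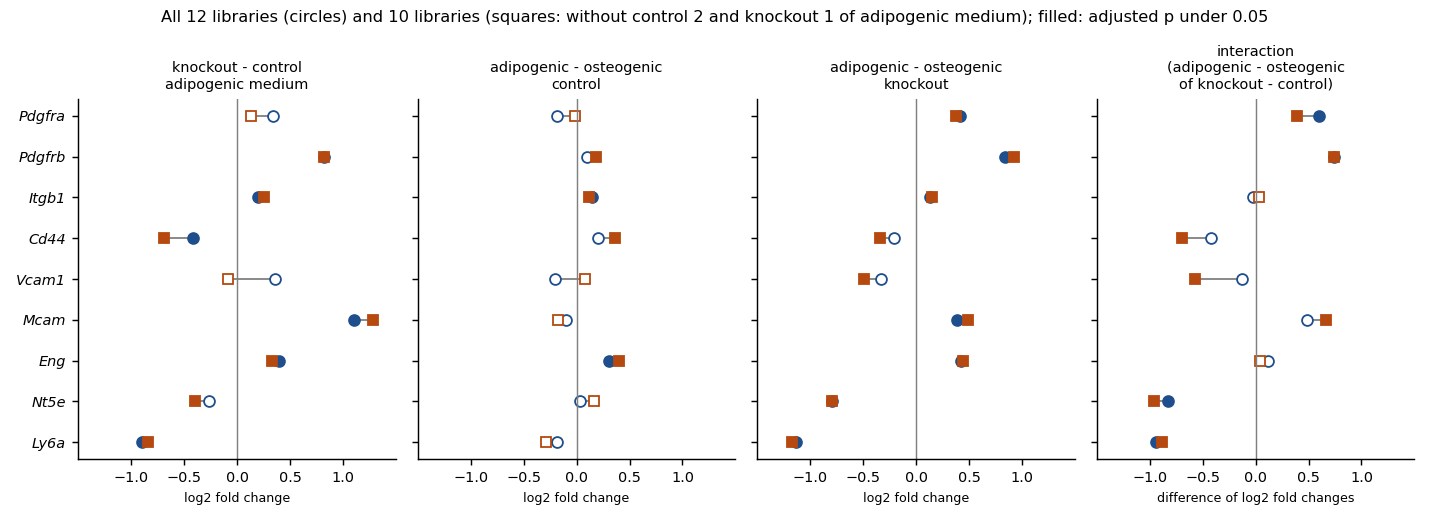
Log2 fold change of the 9 tested surface genes in the 4 contrasts that use adipogenic medium, with all 12 libraries (circles) and without control library 2 and knockout library 1 of that medium (squares), filled where the limma adjusted p was under 0.05. Pdgfrb, Ly6a and Mcam keep their side of 0 in the genotype contrast, Cd44 moves from -0.41 to -0.70 and Vcam1 crosses 0.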

How the data were processed

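The authors deposited one table of FPKM for 12 libraries, and no other value column was held or used here. Per the study's reporting summary, reads were processed with HISAT2 and Ballgown, while the submitters' notes list Bowtie 0.12.2 and mm9, so the build behind the values is not settled. Ensembl identifiers were matched to GENCODE on GRCm38 (99.9% had a symbol), whose coordinates and exonic lengths were used. Fragments were recovered from the smallest steps between values, 17496343 to 21099588 per library on genes. Amplified copies are not independent, so such numbers cover counting error only.

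Genes with at least 1 FPKM in at least 3 libraries were fitted with limma 3.58.1 in R 4.3.3 on log2(FPKM + 1) as 4 group means with a trended variance, and p was adjusted by Benjamini-Hochberg over 12871 genes. Thy1 was compared by exact permutation tests. Nothing states that libraries came from separate animals or cultures, so p-values measure spread between these samples, pooled over all groups in a fit. The procedure was tested on simulated data. Figures used Python 3.11.15, pandas 2.3.3, numpy 2.4.6 and matplotlib 3.10.9.

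The genes named are the 10 surface genes, Chd7, genes of the lists around them that were called or most abundant, marker genes of the cell type lists, and the 3 genes most like each tested surface gene, which for Vcam1 are not reported here. Gdf2, Bmp10, Lepr and Dpp4 did not pass the filter, fall outside that rule and were named after their values were seen. The surface genes and lists were chosen with earlier results of these data known. Of the marker lists, those of osteoblasts, fat cells and pericytes were used only as background: of their tested genes in adipogenic medium, 5 of 8, 2 of 4 and 4 of 5 were called higher in knockout libraries and none lower, against 16.7% and 16.5% of all genes. In osteogenic medium 1 of 8, 0 of 4 and 2 of 5 were higher and 1, 2 and 0 lower, against 4.94% and 4.15%. Between the media, 7 of 8 osteoblast genes were higher and 1 lower in adipogenic medium in knockout libraries, against 13.9% and 14%. In control libraries 2 were higher and 2 lower, against 10.5% and 12.3%. Of 12 genes that stromal cells should lack, Ly76 was not found. Each fit was repeated with 0.1 in place of 1 as pseudocount, without the filter, on TPM, after median ratio scaling, without the trend, on the compared libraries alone, blocked by replicate number, by voom on recovered fragments, and with each library left out.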

Additional observations from a re-analysis of the deposited data

Results flagged for a closer look

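Each result here is a gene whose genotype difference, knockout against control, differed between the media by the limma interaction (adjusted p under 0.05 over 12871 genes). Values are the log2 difference in adipogenic minus that in osteogenic medium, each followed by the value without the 2 libraries that stood apart, with no explanation weighed.

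Among the stromal surface genes it was 0.60 (then 0.39) for Pdgfra, 0.74 (0.74) for Pdgfrb, -0.94 (-0.89) for Ly6a and -0.83 (-0.96) for Nt5e, which passed the filter only through the knockout osteogenic libraries, so that its value was favoured by the filter. Among PDGF ligands it was 0.83 (1.03) for Pdgfa and -1.36 (-1.53) for Pdgfb. For integrin alpha chains it was 0.81 (0.56) for Itga5, -0.72 (-0.78) for Itga7 and 0.37 (0.44) for Itgav. For Itga10 it was 1.04 (1.13), a value favoured by the filter, which Itga10 passed through the 3 knockout adipogenic libraries and 1 other. Around endoglin it was 0.86 (1.13) for Tgfbr1, -0.64 (-0.92) for Tgfb1 and 0.50 (0.63) for Tgfb2. In adenosine handling it was 0.68 (0.71) for Ada and 0.37 (0.25) for Slc29a1. For hyaluronan genes it was -1.08 (-1.15) for Has2, -1.13 (-0.95) for Hmmr, -0.69 (-0.71) for Cemip and 0.90 (1.21) for Hyal1. Of the other stromal surface genes it was -1.47 (-1.90) for Pdpn and -0.81 (-0.95) for Cd200.

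Of the 20 alternatives, the call ended in 12 for Tgfb1, 10 for Slc29a1, 9 for Pdgfra, 8 for Tgfbr1, 4 for Pdgfa and 1 each for Cemip and Ly6a.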

How the results depend on the processing

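Of 700 values of the 9 tested surface genes under alternatives, 589 kept direction and side of the threshold, 66 lost the call, 26 gained it and 19 reversed. For the genes around them only the 91 called results were followed, and of their 1443 values 1193 kept both, 250 lost the call and none reversed. All 19 reversals above were of results that were not called. Where no cause is named, the cause was not tested.

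Genes called, with TPM, were 526 between genotypes in osteogenic medium. With only the libraries compared they were 3412 between genotypes in osteogenic medium, 1707 in adipogenic medium and 527 between media in control libraries. Without the 2 libraries that stood apart, chosen after seeing the data, they were 6575 between genotypes in adipogenic medium, 6397 between media in control libraries and 5793 for the interaction. Surface genes called between media in control libraries were 0 of 10 with no filter, where 2040 of all 30520 genes above 0 were called. They were 1 with TPM (Pdgfra, lower), where 2105 genes were called, 0 with only the libraries compared, and 4 without the 2 libraries. In knockout libraries they were 4 of 10 with no filter, where 3277 of 30520 genes were called. Between genotypes with only the libraries compared they were 6 in osteogenic and 3 in adipogenic medium. The interaction had 7 without the 2 libraries.

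Leaving out 1 library at a time gave 522 to 662 genes and 1 to 3 surface genes between genotypes in osteogenic medium, and 2723 to 6559 and 5 to 8 in adipogenic medium. It gave 1367 to 6147 genes and 0 to 3 surface genes between media in control, and 2486 to 2798 and 3 to 6 in knockout libraries. The interaction had 1754 to 5427 and 2 to 6.

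Calls with TPM were 78.4% higher against 50.4% between genotypes in adipogenic medium, 30.6% against 46.1% between media in control, 65.5% against 49.7% in knockout libraries, and 75.4% against 53.1% for the interaction.

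With the replicate number as a block, 744 genes and 3 surface genes were called between genotypes in osteogenic medium, 3889 and 7 in adipogenic medium, 1943 and 0 between media in control, 2882 and 5 in knockout libraries, and 2176 and 5 for the interaction, where Mcam gained its call (limma adjusted p = 0.0365), as Pdgfra did between genotypes in adipogenic medium (limma adjusted p = 0.0473). Equal numbers did not pair: after group means were removed, r between such libraries was -0.038 to 0.058 for genotypes in osteogenic and -0.286 to 0.466 in adipogenic medium, and for media -0.056 to 0.086 in control and -0.020 to 0.030 in knockout libraries.

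The reversed values were log2 differences, none called. With TPM they were -0.00431 for Cd44 between genotypes in osteogenic medium, -0.0332 for Pdgfrb and -0.0255 for Nt5e between media in control libraries, and 0.176 for Itgb1 and 0.0450 for Vcam1 in the interaction. With voom Nt5e was at -0.0169 between media in control libraries. Without the 2 libraries, Vcam1 was at -0.0817 between genotypes in adipogenic medium and 0.0778 between media in control libraries, and Itgb1 at 0.0307 in the interaction. With 1 library left out, Cd44 ran from -0.0174 to 0.0312 between genotypes in osteogenic medium, and between media in control libraries Nt5e ran from -0.0407 to 0.165 and Vcam1 from -0.343 to 0.0778. In the interaction Itgb1 then ran from -0.0422 to 0.00670 and Vcam1 from -0.410 to 0.0106.

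Thy1, Nt5e and Mcam rest on 10 to 268 fragments per library, which limits their precision. Nt5e could not be fitted without a knockout library in osteogenic medium.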
